A study of Homo sapiens with 10 samples.

Results

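The genes described are 6 forkhead genes of mesenchyme, meninges and pericytes, FOXC1, FOXC2, FOXF1, FOXF2, FOXD1 and FOXS1, chosen by name among the 24050 genes listed in either of the count tables. FOXC1, FOXC2, FOXF2 and FOXS1 were listed and tested in NPCs, and FOXF1 and FOXD1 were not analysed here in NPCs. All 6 genes were listed in HEK293T cells, where 5 had enough counts to be tested and FOXS1 did not.

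The RNA-seq data compare wild-type (WT) cells with cells in which ZNF274, a zinc finger protein of heterochromatin, was knocked out (KO). The question was which genes change in expression when the protein is lost. HEK293T is an established line from human embryonic kidney, with 3 WT libraries (S15, S16 and S17) and 3 KO libraries (S18, S19 and S20). NPCs are neural progenitor cells obtained from H1 human embryonic stem cells through embryoid bodies, and were sequenced in 2 libraries of WT, S3 and S5, and 2 of KO, S1 and S2. The KO cells carry a CRISPR-Cas9 deletion made with guides on either side of ZNF274, and they are clones, grown from sorted single HEK293T cells or from picked stem cell colonies. The series' design text gives independent clones as its biological replicates, but the labels do not tie a library to a clone, so the p-values measure the spread between these samples. No other allele or agent is given for any group.

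Libraries held 21421013 to 32285876 counts on genes in HEK293T cells and 18621266 to 23035490 in NPCs. ZNF274 had 491 and 496 counts in the NPC libraries of WT, against 0 in those of KO, which is at least 172-fold lower. In HEK293T cells its WT libraries held 423 to 492 counts and all KO libraries 0, which is at least 137-fold lower. Both bounds set the KO libraries at the floor of 3 counts, which covers counting error only. Levels are given as CPM, counts scaled to the size of the library by TMM, and, between genes, as CPM per kb of exon.

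Forkhead factors bind DNA through a winged-helix domain, and several of them act in the mesenchyme, the loose tissue that gives rise to connective tissue, vessel walls and the coverings of the brain. FOXC1 and FOXC2 are close relatives that act in head and paraxial mesenchyme, in the meninges and in vessels. FOXF1 and FOXF2 respond to Hedgehog signals in the mesenchyme around the gut, and FOXF2 is also a factor of brain pericytes, the cells that wrap capillaries. FOXD1 marks the stroma of the developing kidney, from which renal pericytes arise, and FOXS1 is found in pericytes and in derivatives of the neural crest. In bulk RNA, fewer cells of a type and less RNA per cell cannot be told apart.

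The genes lie in 2 pairs and 2 single positions (hg19). FOXC1 (ENSG00000054598) is a gene of 1 exon on the + strand of chromosome 6, from 1610150 to 1614132. FOXF2 (ENSG00000137273), with 2 exons, lies on the same strand of chromosome 6, from 1389811 to 1395838, and its start is 220339 bases before that of FOXC1. FOXC2 (ENSG00000176692), again with 1 exon, lies on the + strand of chromosome 16 from 86600435 to 86603334. FOXF1 (ENSG00000103241), with 2 exons, lies before it from 86544133 to 86549028. FOXD1 (ENSG00000251493) is on the − strand of chromosome 5 from 72740654 to 72744602, and FOXS1 (ENSG00000179772) on the − strand of chromosome 20 from 30432106 to 30433407. Thus both pairs join an FOXC gene with an FOXF gene.

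Promoter sequences of RefSeq were matched by symbol for 3 of the 6 genes, FOXC1, FOXF2 and FOXD1. Those of FOXC1 and FOXF2 are shown because these neighbours were both high in HEK293T cells and both low in NPCs, while only FOXC1 passed the test on KO in NPCs. The 250 bases before the gene start are given 5′ to 3′ on the + strand of GRCh38.p14, at chr6:1609665-1609914 for FOXC1 and chr6:1389326-1389575 for FOXF2. This build differs from that of the gene positions above. Capitals mark GC boxes (GGGCGG) and CCAAT boxes (CCAAT), each on either strand.
FOXC1: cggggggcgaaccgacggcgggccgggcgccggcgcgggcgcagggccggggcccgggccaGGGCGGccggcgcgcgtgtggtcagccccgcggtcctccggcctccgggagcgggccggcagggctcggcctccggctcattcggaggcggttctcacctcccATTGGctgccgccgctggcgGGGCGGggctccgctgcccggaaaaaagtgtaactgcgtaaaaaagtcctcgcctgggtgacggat
FOXF2: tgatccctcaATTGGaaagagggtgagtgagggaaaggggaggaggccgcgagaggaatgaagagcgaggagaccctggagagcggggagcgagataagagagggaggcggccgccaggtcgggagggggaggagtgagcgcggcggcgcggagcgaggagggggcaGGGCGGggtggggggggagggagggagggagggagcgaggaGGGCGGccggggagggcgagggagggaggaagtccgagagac
Both stretches were rich in G and C, with 76.8% and 37 CpG in FOXC1 and 70.8% and 20 CpG in FOXF2, against medians of 58.0% and 11 CpG over 35116 promoters. In FOXC1, GC boxes began 189 and 66 bases before the start and a reversed CCAAT box 86 bases before it. In FOXF2, GC boxes began 83 and 42 bases before the start and a reversed CCAAT box 240 bases before it. The letters GGGCGG were held by 42.6% of all promoters of this length and CCAAT by 32.0%. Neither the forkhead motif TGTTTAC, held by 2.98%, nor TATAAA, held by 10.7%, was in these windows of the 2 genes, and no searched motif overlapped another here.

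In NPCs, 3 of the 4 forkhead genes tested were up-regulated in KO cells, FOXC2 most of all, and FOXF2 did not pass the test. A gene was called when its adjusted P value was below 0.05 (quasi-likelihood test of edgeR, adjusted by Benjamini-Hochberg over all genes) and its FC above 2, and each log2 FC is given with its standard error (SE). Of all 20577 genes tested in NPCs, 16.8% were called, 8.45% higher and 8.36% lower in KO, and the median log2 FC over all genes was -0.02, against 2.41 over the 4 forkhead genes. The choice of these genes was made with earlier results known, so their count is a description.

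FOXC2 had 28 and 22 counts in the WT NPC libraries S3 and S5 and 544 and 771 counts in the KO libraries S1 and S2. In CPM these were 1.33 and 1.13 in WT and 26.9 and 34.7 in KO. Both KO libraries were far above both WT libraries, and the libraries of each group lay close together. The WT mean was 1.23 ± 0.141 CPM (SD, n = 2) and the KO mean 30.8 ± 5.56 CPM (SD, n = 2), an FC of 25.0 (log2 FC = 4.64, SE 0.251, adjusted p = 6.32e-05, edgeR). By size of log2 FC it ranked 477 from the top among the 20577 genes. FOXC2 remained called when any single library was left out, with log2 FCs of 4.43 to 4.82.

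FOXC1 had 49 and 11 counts in WT (libraries S3 and S5) and 219 and 110 in KO (libraries S1 and S2). In CPM these were 2.32 and 0.563 in WT and 10.8 and 4.96 in KO. The groups did not overlap. As a ratio between libraries, the spread of FOXC1 was wider than that of FOXC2 in both WT and KO. In CPM it was wider in WT only, as the KO SD was 4.14 for FOXC1 and 5.56 for FOXC2. The WT mean was 1.44 ± 1.24 CPM (SD, n = 2) and the KO mean 7.89 ± 4.14 CPM (SD, n = 2), an FC of 5.41 (log2 FC = 2.43, SE 0.648, adjusted p = 0.0303, edgeR). Without KO library S1 the call was lost, with a log2 FC of 1.77 and an adjusted p of 0.193 (edgeR). The WT libraries also moved the size of the change, to a log2 FC of 3.79 without S3 and 1.75 without S5, and the call was kept in both cases.

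FOXS1, the factor of pericytes and neural crest, had 27 and 11 counts in WT (libraries S3 and S5) and 124 and 81 in KO (libraries S1 and S2). In CPM these were 1.28 and 0.563 in WT and 6.12 and 3.65 in KO. Again the groups did not overlap, and S3 and S1 were the higher library of their group, as for FOXC1. The WT mean was 0.921 ± 0.506 CPM (SD, n = 2) and the KO mean 4.89 ± 1.75 CPM (SD, n = 2), an FC of 5.25 (log2 FC = 2.39, SE 0.497, adjusted p = 0.012, edgeR). Its call too was lost without KO library S1, with a log2 FC of 1.97 and an adjusted p of 0.103 (edgeR). Without WT library S3 the log2 FC was 3.10 and the call was kept.

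FOXF2 had 5 counts in each WT NPC library, and 3 and 11 in the KO libraries S1 and S2. Its mean was 0.246 ± 0.0136 CPM (SD, n = 2) in WT and 0.322 ± 0.246 CPM (SD, n = 2) in KO, and the KO libraries lay on either side of the WT libraries. The floor of 3 counts stood at 0.135 to 0.154 CPM in these libraries, so that FOXF2 was at or little above it. Its log2 FC was 0.39 (SE 0.936, adjusted p = 0.797, edgeR), and at these low counts no change was detected. Without KO library S2 the log2 FC was -0.72.

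For FOXC1, FOXC2 and FOXS1 both KO libraries stood above both WT libraries, which in NPCs held for 33.3% of all tested genes. The other forkhead genes served as a comparison. Of 24 tested in NPCs, 3 were up-regulated and 2 down-regulated, with a median log2 FC of -0.25. The up-regulated genes were FOXP1 (from 25.4 to 102 CPM on average, adjusted p = 0.000579, edgeR), FOXL1 (log2 FC = 2.23, SE 0.288) and FOXN3 (log2 FC = 1.01, SE 0.116). FOXN3 lay at the FC threshold, and without WT library S3 or KO library S2 its log2 FC was 0.93 or 0.98. The down-regulated genes were FOXJ1, a factor of motile cilia, at a log2 FC of -5.50, and FOXN4, a factor of retinal and spinal progenitors. FOXN4 had 22 and 7 counts in the WT libraries S3 and S5 and 0 in both KO libraries, and its call was lost without KO library S1 (adjusted p = 0.0900, edgeR) or S2 (adjusted p = 0.0873, edgeR). FOXJ1 differed widely between the WT libraries, with 960 counts in S3 and 151 in S5, against 4 and 21 in KO, and its call was lost with voom (log2 FC = -5.34, adjusted p = 0.108).

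**Figure D1:**
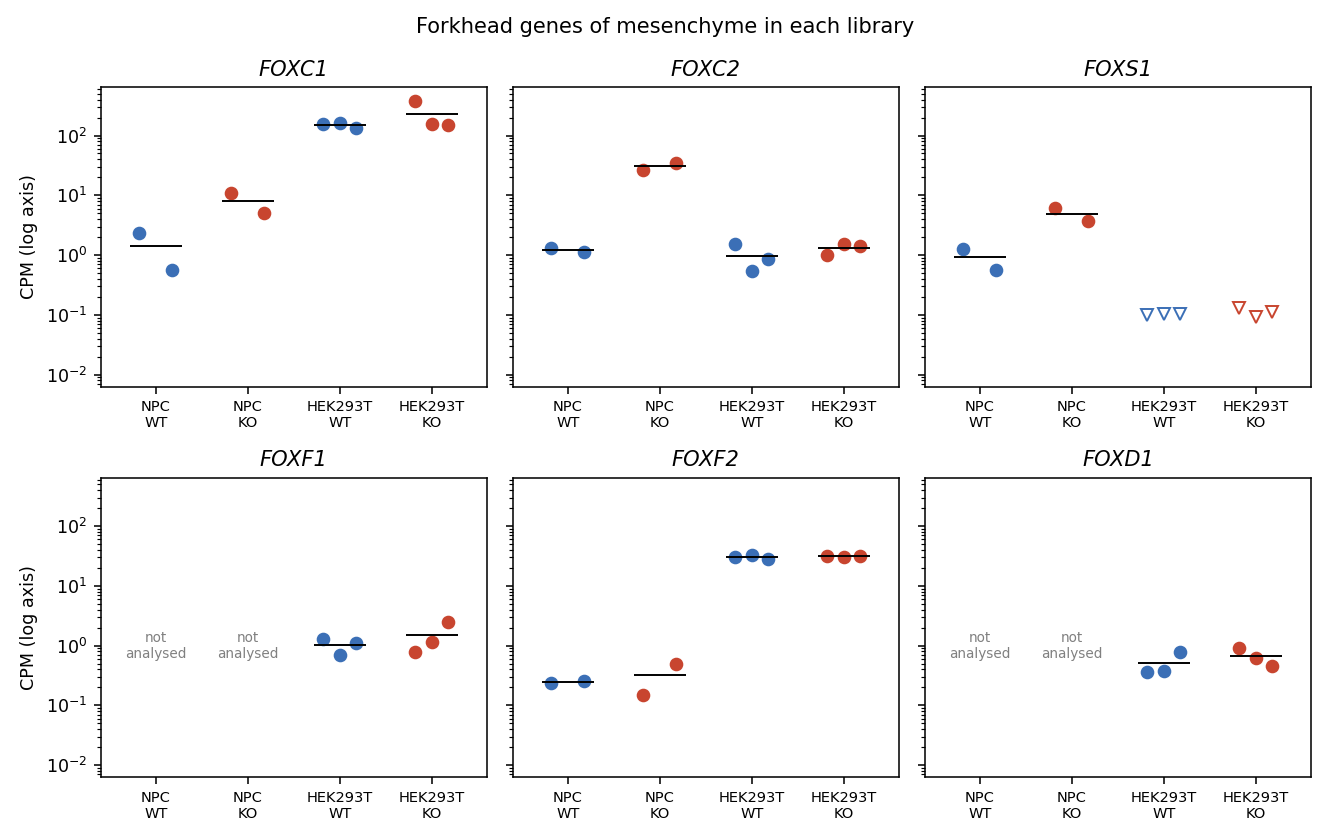
Level of each forkhead gene of mesenchyme in each library, in CPM on a log axis, for WT (blue) and KO (red) NPC and HEK293T libraries; black lines are group means, and open triangles stand at the floor of 3 counts in libraries with 0 counts. FOXC1, FOXC2 and FOXS1 are higher in both KO NPC libraries than in both WT NPC libraries, while the HEK293T groups overlap for all 5 genes with counts.

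The order of the levels per kb of exon differed between the groups. In WT NPCs, FOXS1 stood at 0.707 ± 0.388 CPM per kb (SD, n = 2), FOXC2 at 0.423 ± 0.0486, FOXC1 at 0.362 ± 0.312 and FOXF2 at 0.101 ± 0.00555. The ranges of FOXS1, FOXC2 and FOXC1 overlapped, so their order is not resolved, and FOXF2 was below them in both libraries. In KO NPCs, FOXC2 stood first at 10.6 ± 1.92 CPM per kb (SD, n = 2), FOXS1 next at 3.75 ± 1.34, then FOXC1 at 1.98 ± 1.04 and FOXF2 last, at 0.0605 and 0.202. No neighbours in this order overlapped, although the lowest FOXS1 library (2.80) and the highest FOXC1 library (2.72) were close.

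FOXC2 was at 0.785 and 2.75 times the level of FOXC1 per kb in the WT NPC libraries S3 and S5. In KO, libraries S1 and S2 had it at 3.41 and 9.63 times that level. The ratio was thus higher in each KO library than in either WT library, and S5 and S2 had the higher ratio of their group. Among 31 forkhead genes listed in NPCs, FOXC2 held rank 16 in WT and rank 2 in KO by mean CPM per kb, after FOXM1, a factor of dividing cells (29.6 CPM per kb in KO). In KO the range of FOXC2 (9.265 to 11.98 CPM per kb) overlapped that of FOXP4 (8.761 to 9.569), so rank 2 is not resolved. FOXS1 held rank 14 in WT and 10 in KO, FOXC1 rank 17 and 15, and FOXF2 rank 23 and 20. The 4 genes made up 1.29% of the summed forkhead CPM per kb in WT NPCs and 15.3% in KO NPCs.

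**Figure D2:**
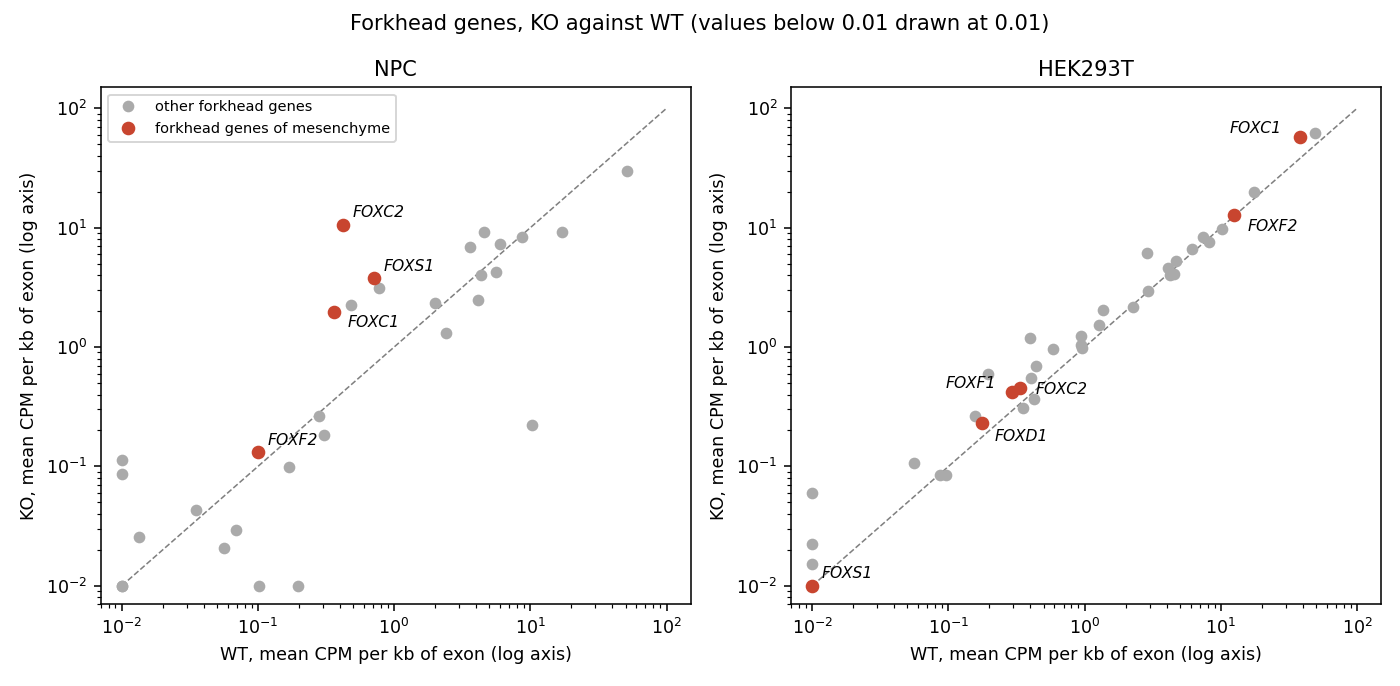
Mean CPM per kb of exon of every listed forkhead gene in WT (x axis, log scale) and KO (y axis, log scale) for NPCs and HEK293T cells; red points are the forkhead genes of mesenchyme, grey points the other forkhead genes, and the dashed line marks equal levels. In NPCs FOXC2 lies farthest above the line of the 4 red points, from 0.423 to 10.6 CPM per kb, and in HEK293T cells FOXC1 and FOXF2 are among the 4 highest forkhead genes.

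In HEK293T cells none of the 5 forkhead genes tested was called, and 0 had an unadjusted p below 0.05 (edgeR). DESeq2 and voom also called 0 of them. Of all 19018 genes tested there, 0.489% were called. The median log2 FC was 0.44 over the 5 genes and 0.01 over all genes. FOXC1 and FOXF2 were at high levels in these cells, and FOXC2, FOXF1 and FOXD1 at low levels.

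FOXC1 stood at 155, 164 and 134 CPM in the WT libraries S15, S16 and S17. In the KO libraries S18, S19 and S20 it stood at 380, 157 and 152 CPM. Library S18 was above all others, and the remaining KO libraries lay within the range of WT. The means were 151 ± 15.4 CPM (SD, n = 3) and 229 ± 130 CPM (SD, n = 3), a log2 FC of 0.60 (SE 0.302, adjusted p = 0.729, edgeR), which fell to 0.03 without S18. Library S18 had the fewest counts of the HEK293T libraries, 21421013, and the part of depth in this value was not tested. FOXQ1, an epithelial forkhead gene that starts 297817 bases before FOXC1, was also highest in S18, with 3.15 CPM against 0.237 to 0.934 CPM in the other libraries (log2 FC = 1.58, SE 0.632, adjusted p = 0.639, edgeR). FOXF2, which lies between them, was not higher in S18.

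FOXF2 stood at 30.3, 33.1 and 27.9 CPM in the WT HEK293T libraries S15, S16 and S17 and at 32.2, 29.9 and 31.3 CPM in the KO libraries S18, S19 and S20. The groups overlapped and the libraries varied little. Its log2 FC was 0.03 (SE 0.149, adjusted p = 0.975, edgeR), the smallest standard error among the 5 genes. FOXC2 ranged from 16 to 45 counts in WT and from 23 to 49 counts in KO, with a log2 FC of 0.44 (SE 0.428, adjusted p = 0.871, edgeR).

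FOXF1 ranged from 0.688 to 1.27 CPM in WT and from 0.786 to 2.50 CPM in KO (log2 FC = 0.54, SE 0.467, adjusted p = 0.852, edgeR), and library S20 alone was above the WT range. Without S20 its log2 FC was -0.06. FOXD1 ranged from 0.367 to 0.779 CPM in WT and from 0.448 to 0.917 CPM in KO (log2 FC = 0.37, SE 0.500, adjusted p = 0.910, edgeR). The counts were small, 18 to 67 per library for FOXF1 and 11 to 23 for FOXD1, and the groups overlapped for both genes. FOXS1 had 0 counts in all 6 HEK293T libraries, which allows up to 0.0921 to 0.131 CPM.

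In WT HEK293T cells the order per kb of exon was FOXC1 at 37.9 ± 3.86 CPM per kb (SD, n = 3), FOXF2 at 12.4 ± 1.07, FOXC2 at 0.333 ± 0.168, FOXF1 at 0.291 ± 0.0856 and FOXD1 at 0.178 ± 0.0820. FOXC1 and FOXF2 did not overlap with each other or with the rest. The ranges of FOXC2 and FOXF1 overlapped, as did those of FOXF1 and FOXD1. Per kb, FOXC1 was 75.2 to 275 times as high as FOXC2 over the 6 HEK293T libraries. Among 41 forkhead genes listed in HEK293T cells, FOXC1 held rank 2 and FOXF2 rank 4 in both WT and KO by mean CPM per kb. In KO the range of FOXC1 (38.03 to 95.3 CPM per kb) overlapped that of FOXM1 (55.02 to 75.74). In WT the range of FOXF2 (11.38 to 13.52) overlapped that of FOXO3 (9.196 to 11.49). The rank of FOXC1 in KO and that of FOXF2 in WT are therefore not resolved. The 6 genes made up 27.8% of the summed forkhead CPM per kb in WT and 31.4% in KO. The KO share includes FOXC1 at 95.3 CPM per kb in S18, against 39.4 in S19 and 38.0 in S20.

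WT cells of both kinds were compared in 1 fit over 19255 genes listed in both tables that passed the filter over the libraries of both, of which 40.7% were called and 15.5% were called lower in NPCs. Cell type and library run cannot be told apart in this comparison. FOXC1 was lower in WT NPCs than in WT HEK293T cells, with a log2 difference of -6.68 (SE 0.627, adjusted p = 2.38e-06, edgeR), which was -8.05 without NPC library S3 and -6.01 without S5. FOXF2 was lower as well, by a log2 difference of -6.92 (SE 0.356, adjusted p = 1.78e-08, edgeR). FOXC2 did not pass the test, with a log2 difference of 0.35 (SE 0.398, adjusted p = 0.477, edgeR). FOXS1, at 0 counts in HEK293T cells, was at least 9.11-fold higher in WT NPCs, with WT HEK293T libraries set at the floor of 3 counts each.

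The difference of the KO effect between NPCs and HEK293T cells was tested as an interaction over all 10 libraries, in which 12.2% of the 19255 genes were called and 6.01% had the larger log2 FC in NPCs. FOXC2 was called, with a log2 FC larger in NPCs by 4.22 (SE 0.538, adjusted p = 0.000332, edgeR), and it remained called when any single library was left out. FOXC1 did not pass, with a difference of 1.84 (SE 0.720, adjusted p = 0.107, edgeR). It passed without HEK293T library S18, at 2.40 (adjusted p = 0.00942, edgeR), and without NPC library S3, at 3.21 (adjusted p = 0.0441, edgeR). FOXF2 had a difference of 0.40 (SE 0.556, adjusted p = 0.702, edgeR), which was -0.73 without NPC library S2. No difference is given for FOXS1, since a log2 FC in HEK293T cells has no value with 0 counts in every library.

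**Figure D3:**
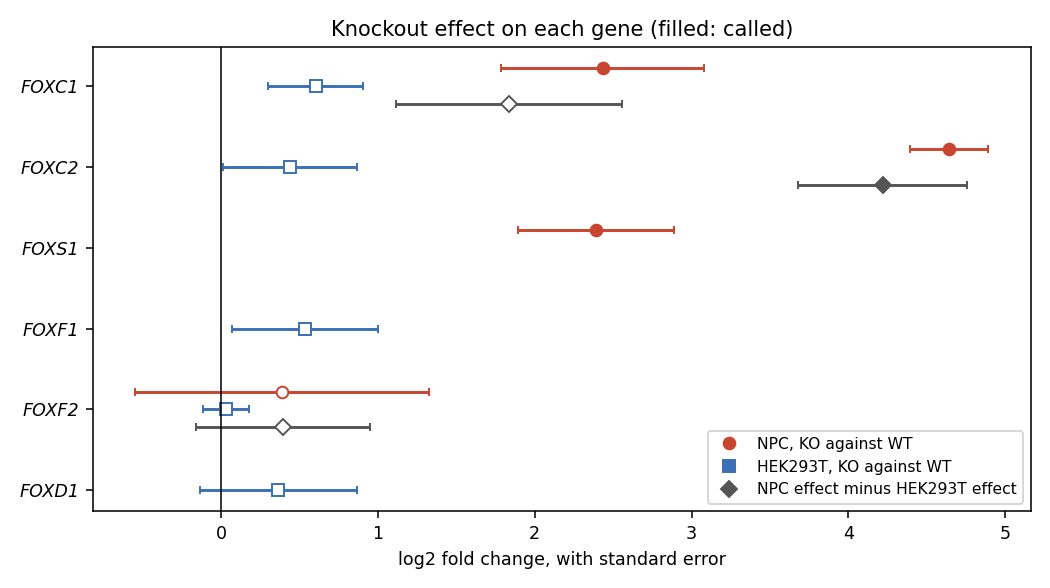
KO effect on each forkhead gene as log2 FC (x axis) with its standard error, in NPCs (circles), in HEK293T cells (squares) and as the NPC effect minus the HEK293T effect (diamonds); filled symbols were called. FOXC2 stands at 4.64 in NPCs, 0.44 in HEK293T cells and 4.22 for the difference, whereas FOXF2 lies within 1 standard error of 0 in each.

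Genes near the forkhead genes were examined up to 500 kb from the start of each. Over all genes tested in NPCs, 16.8% were called, 8.45% of them higher in KO and 8.36% lower as shares of the same total. Around FOXC2, 4 other genes were tested in NPCs and 2 were called, both higher in KO. FOXL1, a forkhead gene of gut mesenchyme that starts 9539 bases after FOXC2, had 61 and 38 counts in WT (libraries S3 and S5) and 232 and 251 in KO (libraries S1 and S2). Its KO libraries were close together and above WT (log2 FC = 2.23, SE 0.288, adjusted p = 0.00175, edgeR). LINC02188, a long noncoding RNA gene that starts 143293 bases after FOXC2, had 4 and 5 counts in WT and 31 and 36 in KO (log2 FC = 2.80, SE 0.569, adjusted p = 0.011, edgeR). Its call was lost without KO library S1 (adjusted p = 0.0702, edgeR) or S2 (adjusted p = 0.0763, edgeR).

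The other tested genes by FOXC2 were not called. MTHFSD, which starts 11594 bases before FOXC2, had a log2 FC of -0.44 (SE 0.208, adjusted p = 0.159, edgeR). FOXC2-AS1, an antisense RNA gene whose span overlaps that of FOXC2 by 1019 bases, had 3 and 3 counts in WT and 5 and 1 in KO, with a log2 FC of -0.04 (SE 1.22). The libraries were stranded, but the strand setting of the counting is not given in the sources used here. Reads of the antisense gene could therefore be counted on FOXC2 or the reverse, which was not tested.

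Around FOXC1, 2 other genes were tested in NPCs and 0 were called (edgeR, with 0 at an unadjusted p below 0.05). They were FOXF2 and a long noncoding RNA gene without a symbol (log2 FC = 0.94, SE 1.48, adjusted p = 0.681, edgeR). Around FOXS1, 21 genes were tested, of which HM13, MCTS2 and BCL2L1 were higher in KO and ID1 lower. These 4 calls, and the 2 among 10 genes around FOXD1, are near the share of 16.8% called over all genes in NPCs. ID1, an inhibitor of differentiation factors that responds to BMP signals, had a log2 FC of -1.91 (SE 0.269, adjusted p = 0.00245, edgeR). HM13 and MCTS2, a retrocopy that lies in an intron of HM13, had log2 FCs of 1.05 and 1.01, at the threshold. That of HM13 was 0.88 without WT library S5, and that of BCL2L1 was 0.86 without KO library S2. MCTS2 was not called without WT library S3 (log2 FC = 0.81), KO library S1 (adjusted p = 0.0712, edgeR) or S2 (0.306), and FCHO2, by FOXD1, was lost without the same libraries (log2 FC = 0.66, adjusted p = 0.224 and 0.105, edgeR). Around FOXD1, 10 genes were tested and FCHO2 and ARHGEF28 were higher in KO, ARHGEF28 by a log2 FC of 4.08 (SE 0.283, adjusted p = 0.000159, edgeR). In HEK293T cells edgeR called 0 genes in any of the 6 windows, where only 0.489% of all tested genes were called.

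**Figure D4:**
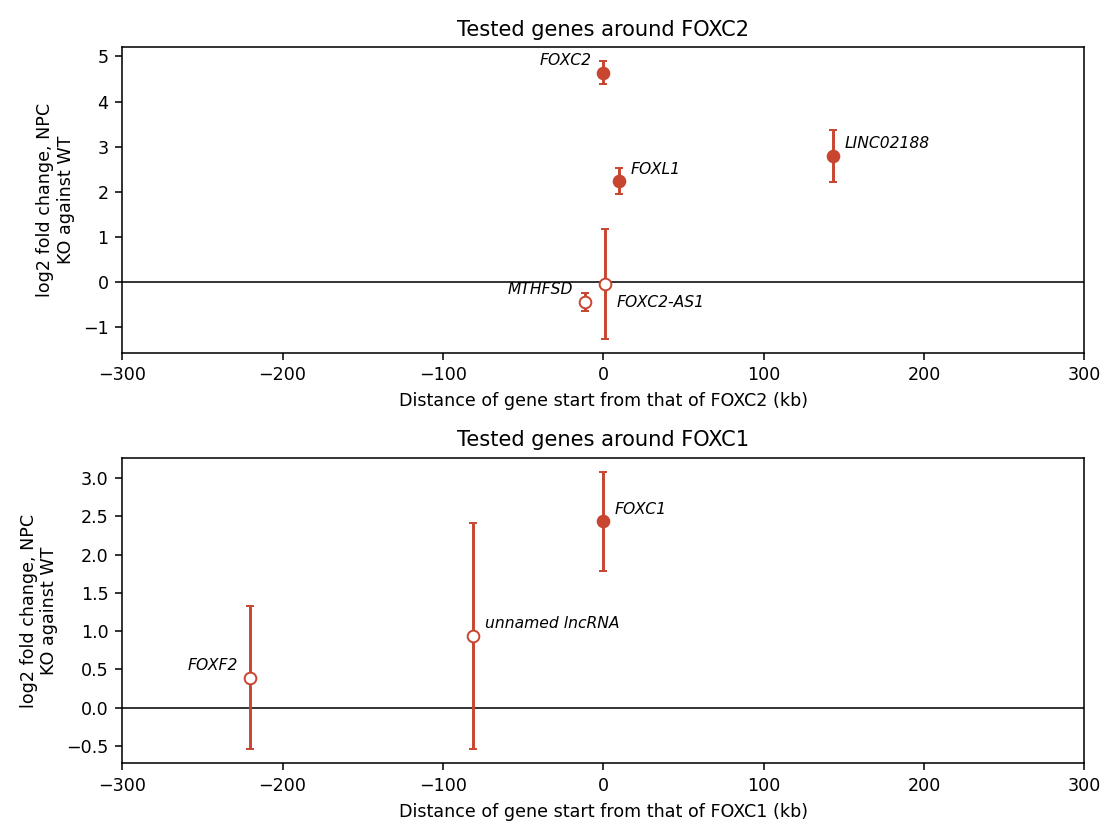
KO effect in NPCs as log2 FC with its standard error (y axis) for the tested genes around FOXC2 and FOXC1, by distance of the gene start from that of FOXC2 or FOXC1 in kb (x axis); filled points were called. Beside FOXC2, FOXL1 (2.23) and LINC02188 (2.80) are filled and MTHFSD (-0.44) and FOXC2-AS1 (-0.04) open, and beside FOXC1 neither neighbour is filled.

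Marker genes of the cell types in which forkhead genes of mesenchyme are used were higher in KO NPCs in part. Of 16 mesenchyme transcription factors tested, 7 were up-regulated and 0 down-regulated (edgeR, with 9 at an unadjusted p below 0.05 in either direction), with a median log2 FC of 1.86. Their summed level was 247 to 343 CPM in the WT and 468 to 608 CPM in the KO libraries, and TWIST2 was at 0 in all 4. SNAI2, a repressor of epithelial genes, had a log2 FC of 2.86 (SE 0.207), and MEOX1, a factor of somites, one of 5.59 (SE 0.394). ZEB2 had a log2 FC of 1.40 (SE 0.175) and MSX2 one of 2.21 (SE 0.566).

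Of 17 genes of meninges and fibroblast matrix, 7 rose and 1 fell, with a median log2 FC of 1.61, and their summed level was 2231 to 3231 CPM in WT and 5973 to 7022 CPM in KO. The collagen genes COL1A1 and COL3A1 had log2 FCs of 2.53 (SE 0.115) and 3.59 (SE 0.346), and FBN1, which encodes fibrillin, one of 1.59 (SE 0.310). COL1A2, also a collagen gene, was not called (log2 FC = 0.07, SE 0.353, adjusted p = 0.903, edgeR). COL1A1 alone held a large part of the summed level, with means of 601 CPM in WT and 3480 CPM in KO. Of the 17 genes, 13 had a log2 FC above 0. BMP7, a secreted signal of the meninges and of the early nervous system, was the gene that fell, with a log2 FC of -3.39 (SE 0.147). Without KO library S1 the calls of FBN1 and MSX2 were lost, at log2 FCs of 1.26 (adjusted p = 0.0577, edgeR) and 1.90 (adjusted p = 0.130, edgeR). That of MSX2 was also lost without KO library S2, at 2.46 (adjusted p = 0.0503, edgeR).

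Of 15 genes of pericytes and mural cells, 5 rose and 2 fell, with a median log2 FC of 0.49 and a summed level of 1752 to 1852 CPM in WT and 4467 to 4669 CPM in KO. Those that rose were the actin-binding TAGLN (log2 FC = 1.89), the PDGF receptor gene PDGFRB (1.81), the proteoglycan gene CSPG4 (3.84), the intermediate filament gene DES (6.42) and ANPEP. TAGLN alone held most of the summed level, with means of 941.5 CPM in WT and 3498 CPM in KO. Those that fell were ABCC9 (log2 FC = -2.88) and KCNJ8 (log2 FC = -2.52), which encode the subunits of a potassium channel found in brain pericytes. RGS5 was lower too, short of the FC threshold (log2 FC = -0.89, SE 0.160, adjusted p = 0.00669, edgeR). Of the 15 genes, 8 had a log2 FC above 0. Of 10 neural crest genes, 5 rose and 0 fell (edgeR, with 7 at an unadjusted p below 0.05 in either direction), namely ETS1 (log2 FC = 2.38), SOX9 (1.64), PAX3 (6.72), NGFR (3.57) and SOX10. Their median log2 FC was 2.19, or 1.81 with a gene at 0 in one group set at the floor, and their summed level was 668 to 723 CPM in WT and 877 to 1042 CPM in KO. Without KO library S1 the calls of NGFR, at 2.30 (adjusted p = 0.0552, edgeR), and SOX10, at 4.66 (adjusted p = 0.0577, edgeR), were lost. The part of these cell types in the levels of FOXC1, FOXC2 and FOXS1 was not tested.

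Most markers of neural progenitors and neurons moved the other way. Of 17 tested, 12 fell and 0 rose (edgeR, with 14 at an unadjusted p below 0.05), with a median log2 FC of -3.72, or -2.73 with the 4 genes at 0 in one group set at the floor, and their summed level was 3948 to 5009 CPM in WT and 3334 to 3443 CPM in KO. SOX2, a factor of neural progenitors, had 219 to 227 CPM in WT and 12.7 to 21.1 CPM in KO (log2 FC = -3.72, SE 0.233). MAP2, a protein of neuronal microtubules, had a log2 FC of -2.82 (SE 0.150), and FABP7, of radial glia, one of -6.69 (SE 0.452). PAX6 had a log2 FC of -1.30 (SE 0.224), which was -0.99 without KO library S1 and then short of the FC threshold. NES, STMN2 and TUBB3 were not called, with log2 FCs of 0.25 (SE 0.143), 0.32 (SE 0.260) and -0.06 (SE 0.363). Of the 17 genes, 2 had a log2 FC above 0.

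The remaining lists of cell types gave smaller counts. Of 8 endothelial genes (summed level 49.8 to 177 CPM in WT and 88.9 to 116 CPM in KO), CDH5, TIE1 and VWF rose and KDR fell. Without KO library S1 or S2 the calls of CDH5 (adjusted p = 0.0575 and 0.103, edgeR), VWF (0.116 and 0.136) and KDR (0.126 and 0.124) were lost, and KDR had a log2 FC of -0.83 without WT library S5. Of 8 genes of simple epithelium (412 to 665 CPM in WT and 1421 to 1604 CPM in KO), KRT7, KRT8 and KRT18 rose and 0 fell (edgeR, with 4 at an unadjusted p below 0.05 in either direction). KRT8 was not called without WT library S5 (log2 FC = 0.77), KO library S1 (adjusted p = 0.0505, edgeR) or S2 (0.0657). Of 4 pluripotency genes (139 to 161 CPM in WT and 65.1 to 70.4 CPM in KO) LIN28A fell and ZFP42 rose, the latter losing its call without KO library S1 (adjusted p = 0.0901, edgeR) or S2 (0.0612). Of 3 endoderm genes (9.75 to 11.2 CPM in WT and 12.8 to 13.5 CPM in KO) 0 were called (edgeR, with 1 at an unadjusted p below 0.05), while GATA6 was called with all 10 libraries in 1 fit (adjusted p = 0.0165, edgeR) and without WT library S5 (adjusted p = 0.000113, edgeR). In HEK293T cells edgeR called 0 genes of any of these lists, where only 0.489% of all tested genes were called.

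Hedgehog signals act before the FOXF genes, and 12 genes of that pathway were tested in NPCs, with 1 up-regulated and 4 down-regulated and a median log2 FC of 0.07. The receptor component gene SMO fell, with a log2 FC of -1.29 (SE 0.118), as did the inhibitor gene HHIP, at -3.04 (SE 0.374), the ligand receptor gene PTCH1, at -1.17 (SE 0.350), and the effector gene GLI3, at -1.04 (SE 0.214). BOC, a co-receptor gene, rose with a log2 FC of 1.17 (SE 0.128). GLI3 lay at the threshold and was not called without WT library S5 (log2 FC = -0.67), KO library S1 (-0.98) or KO library S2 (-1.12), and PTCH1 was not called without the same libraries (-0.55, -1.09 and -1.28). Among 12 genes linked with FOXC or FOXF factors in development, 3 rose and 1 fell, with a median log2 FC of 1.03.

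The 4 called genes among those 12 were CXCL12, CXCR4, PDGFRB and MSX2. CXCL12, a chemokine made by meninges, had 8 and 9 counts in WT and 32 to 48 in KO (log2 FC = 2.17, SE 0.533, adjusted p = 0.0226, edgeR). Its receptor gene CXCR4 went the other way, from 670 to 821 counts in WT to 6 to 10 in KO (log2 FC = -6.57, SE 0.290, adjusted p = 3.28e-05, edgeR). The call of CXCL12 was lost without KO library S1, at 1.77 (adjusted p = 0.190, edgeR), or S2, at 2.47 (adjusted p = 0.0571, edgeR).

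**Figure D5:**
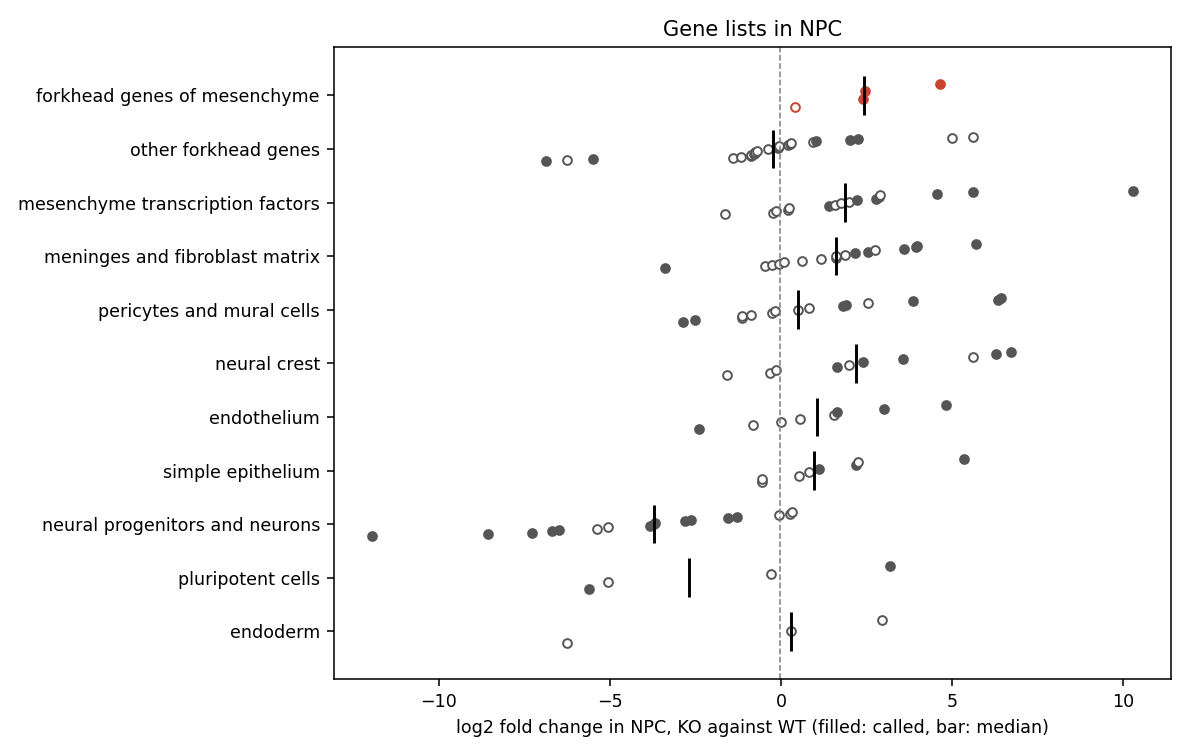
KO effect in NPCs as log2 FC (x axis) for each tested gene of the lists (y axis), with called genes filled, the median of each list as a black bar and the median of all tested genes as a dashed line; genes at 0 in one group are drawn at their fitted values, which are no bounds. The forkhead genes of mesenchyme (red) have a median of 2.41, neural crest genes 2.19 and mesenchyme factors 1.86, while neural genes lie at -3.72.

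The pattern of each called forkhead gene over the 10 libraries was compared with those of 13238 genes with at least 1 CPM on average in some group, by Pearson's r of log2(CPM + 1). Libraries share cell type and genotype, so that r mostly reads the group means, and it is given as a description. The genes most like FOXC2 were MEOX1 (r = 0.994), PVALB (r = 0.992) and PLCH2 (r = 0.991), all of which were higher in KO NPCs than in the other groups. Those most like FOXS1 were PLA2R1 (r = 0.998), GRPR (r = 0.995) and PCDHGA3 (r = 0.994), all low in HEK293T cells. Those most like FOXC1 were ACAT1 (r = 0.994), ZYG11A (r = 0.993) and LRRC8C (r = 0.992), all highest in HEK293T cells. Of the 9 genes, 2 were kept with a pseudocount of 0.1 and 4 with a minimum of 10 CPM.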

How the data were processed

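RNA-seq of 10 libraries was analysed from 1 table of counts per gene for each cell type. Per the study's methods, the authors aligned reads to hg19 (HISAT2) and used featureCounts on genes and transposable elements together, keeping reads mapped to 1 place. They deposited the gene counts without normalization. Their versions, the gene annotation and the strand setting of featureCounts are not given in the sources used here. Transposable elements were not analysed here.

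Groups were taken from the sample labels. The forkhead genes and all lists were chosen with earlier results of these data known. Named genes were these 6 genes and ZNF274, up to 4 genes of each list (those called in NPC with the most CPM or, where none was called, the 2 with the most CPM), called genes within 500 kb of a forkhead gene, and the 3 protein-coding genes most like each called forkhead gene. ANPEP, ABCC9, KCNJ8, SOX10, PTCH1, FOXN4, MTHFSD, FOXQ1, FOXM1, FOXP4, FOXO3, TWIST2, RGS5, COL1A2, NES, STMN2 and TUBB3 fall outside this rule and were chosen after their values were seen. The result of 1 list is not reported here. Identifiers were paired with symbols through GENCODE lifted to hg19, for 20366 of 20965 genes listed in NPCs and 22030 of 22750 in HEK293T cells.

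The deposited counts were tested by edgeR 4.0.16 under R 4.3.3 (TMM, two-sided quasi-likelihood test, Benjamini-Hochberg adjustment over all tested genes), each cell type by itself, on genes whose total count was at least the number of libraries. Calls needed an adjusted p below 0.05 together with an FC above 2. The difference between cell types was an interaction term over the 19665 genes in both tables, filtered in the same way. Standard errors were calculated back from the test statistic. The study's methods use voom, which was run here in limma 3.58.1 as an alternative, beside DESeq2 1.42.0, other scalings, filters and thresholds, all 10 libraries in 1 fit, and each library left out in turn. On simulated counts with 200 genes changed by a log2 FC of 2 in size, 89.5% were recovered for NPCs (20198 genes, 2 of 181 calls false), 94.5% for HEK293T cells (18692 genes, 5 of 194 false) and 80.5% for the interaction (19132 genes, 6 of 167 false). The changed genes were drawn only from those above a minimum mean count. The shares therefore do not cover genes at lower counts, such as FOXF2 in NPCs and FOXD1 in HEK293T cells. Fewer genes were changed than were called in NPCs.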

Additional observations from a re-analysis of the deposited data

Results flagged for a closer look

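The KO effect on FOXC2 differed between the cell types. Its log2 FC was larger in NPCs than in HEK293T cells by 4.22 (SE 0.538, adjusted p = 0.000332 for the interaction in edgeR), and both KO NPC libraries stood above both WT NPC libraries, while the HEK293T groups overlapped. The result was picked out because the difference itself passed its test. Leaving out any single library gave differences that all passed, the lowest being 3.76, without HEK293T library S15. No such value can be given for FOXS1, which had 0 counts in every HEK293T library. FOXF1 and FOXD1 were not analysed here in NPCs, and FOXC1 and FOXF2 did not pass the test of the difference.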

How the results depend on the processing

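FOXC2 kept its direction and its call in NPCs and for the difference between cell types under every alternative run, and FOXC1 and FOXF2 kept theirs for WT NPCs against WT HEK293T cells. The other calls were less firm. Of the 3 forkhead genes called in NPCs, 1 remained without KO library S1 (range 1 to 3 with each library left out) and 1 at an adjusted p below 0.01, where FOXC1 (log2 FC = 2.43) and FOXS1 (log2 FC = 2.39) were lost. With each library left out, log2 FCs in NPCs were 1.75 to 3.79 for FOXC1, 1.92 to 3.10 for FOXS1 and -0.72 to 0.99 for FOXF2, those without KO library S1 being 1.77 and 1.97 for the first and second. FOXC2-AS1 ranged from -1.59 to 0.71, with 0.00446 without WT library S5. In HEK293T cells, FOXF1 ranged from -0.056 to 0.83 and FOXF2 from -0.028 to 0.10. For the difference between cell types, 1 to 2 genes were called, and FOXC1 ranged from 1.15 to 3.21 and FOXF2 from -0.73 to 0.99.

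Over all genes, 3459 calls in NPCs became 2084 to 4038 with each library left out, 2225 at an adjusted p below 0.01 and 5888 without an FC threshold. In HEK293T cells, 93 calls became 44 to 116, 61 at an adjusted p below 0.01 and 164 with DESeq2. For the difference, 2354 calls became 1455 to 2494, and 1224 at an adjusted p below 0.01. A stricter threshold lowers counts by construction, and for the other shifts the cause was not tested.

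Among the other genes named, voom did not call FOXJ1, NGFR, SOX10, KDR, PTCH1 or GLI3, DESeq2 did not call MSX2, KDR or CDH5, scaling by library size alone did not call FOXN3, HM13, MCTS2 or FCHO2, filterByExpr did not call FOXN3 or MCTS2, and the fit of all libraries together did not call FBN1, VWF or KRT8.

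No paired analysis was possible because the labels do not tie libraries of WT and KO to each other. With 1 library left in an NPC group, that library is assumed to vary like those of the other group. The low-count filter filterByExpr removed FOXF2 in NPCs, and FOXF1 and FOXD1 had no value with all libraries in one fit. Counts per library were 3 to 67 for FOXF2 in NPCs and for FOXC2, FOXF1 and FOXD1 in HEK293T cells. The part of depth in these results was not tested.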
